A study of Mus musculus with 6 samples.

Results

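Respiratory chain subunits were taken as the genes whose symbols name a nuclear-encoded subunit of complex I (Nduf), complex II (Sdh), complex III (Uqcr) or complex IV (Cox), or a protein encoded by mitochondrial DNA (mt-). Of 46603 genes counted in renal CD11B+ cells, 80 matched, and 70 of these had at least 10 counts in every library. They comprised 63 of 67 nuclear genes and 7 of 13 mitochondrial genes. Nuclear Cox7a2l, which assembles supercomplexes, and Ndufa4l2, a relative of a complex IV subunit, were listed apart from the complexes, and Ndufa4 was placed in complex IV.

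The respiratory chain sits in the inner mitochondrial membrane. Complexes I and II pass electrons from NADH and succinate to ubiquinone, complex III passes them on to cytochrome c, complex IV reduces oxygen, and the proton gradient that I, III and IV build drives ATP synthase. Complex II is encoded in the nucleus alone, whereas the other complexes combine nuclear subunits with a few made inside the mitochondrion, so that both genomes have to be expressed. The chain is abundant in kidney tubules, which depend on oxidative metabolism, while inflammatory activation of macrophages is known to shift them toward glycolysis.

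All mice carried Rosa26-LSL-RARaT403X, a conditional dominant-negative retinoic acid receptor α that stays silent until Cre removes its stop cassette. In PTEC DN RAR mice (labelled DNRAR, n = 3) PEPCK-Cre drives that removal in proximal tubular epithelial cells (PTECs), and Cre– controls (labelled DN Cont, n = 3) carried the allele without Cre. Per the paper, the allele was made homozygous to block the signaling, and the truncated receptor inhibits RARα, RARβ and RARγ. The CD11B+ cells themselves were not the cells in which PEPCK-Cre is meant to act. PEPCK-Cre mice were on a mixed background and the Rosa26 line on C57BL/6. Males aged 10 to 12 weeks underwent bilateral ischemia-reperfusion injury by clamping for 28 minutes, and on day 3 CD11B+ cells were collected from digested kidneys on antibody-coated magnetic beads, giving 1 polyA RNA library per mouse. The comparison asks how blocking RAR signaling in PTECs changes the myeloid cells of the injured kidney. Reads counted on genes ranged from 29318041 to 40741507 per control library and from 42113139 to 46517005 per PTEC DN RAR library, where 3 counts correspond to between 0.0645 and 0.102 CPM. Leukocyte transcripts were abundant in each: the summed level of 26 pan-leukocyte genes, none of them at 0, was 23500 to 24800 CPM in Cre– controls and 18900 to 22500 CPM in PTEC DN RAR mice. Itgam, the gene for CD11B, measured 1740, 1960 and 1990 CPM in controls and 1370, 1300 and 980 CPM in PTEC DN RAR mice, a log2 fold change of -0.64 ± 0.14 (SE, adjusted p = 0.00818).

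Transcripts of 29 of the 63 nuclear subunits were higher in CD11B+ cells of PTEC DN RAR mice, and those of the other nuclear subunits did not pass the test. The quasi-likelihood test of edgeR was adjusted by Benjamini-Hochberg over 15440 genes, by which 46.0% of the nuclear members rose and 0 fell, where 23.6% of all genes tested rose and 17.1% fell. The log2 fold change was positive in 61 and negative in 2 of the 63, with a median of 0.37 against 0.04 over all genes and a range of -0.03 to 1.62. No nuclear member had an unadjusted p under 0.05 in the lower direction (0 genes), and DESeq2 and limma-voom also called 0 lower. In 32 of the 63, every PTEC DN RAR library lay above every control library, a pattern found in 29.2% of all genes tested, and in 0 every PTEC DN RAR library lay below, against 24.2% of all genes. The number that rose depended on single libraries: it was 45 without Cre– control 1, where 3699 of 15966 genes tested rose. It was 15 without Cre– control 3, where 2433 of 15961 genes tested rose, and 20 without PTEC DN RAR 3, where 2997 of 15729 rose. Cre– control 1 was the highest of the controls for 55 of the 63 genes, and PTEC DN RAR 2 the lowest of its group for 56. Counts of members with close copies are uncertain, since reads aligning to several places were left out: stretches of 50 bases shared with other annotated transcripts made up 31.6% of Ndufb6, 28.5% of Ndufa13, 25.5% of Uqcrb and 22.1% of Cox7c, the highest shares among nuclear members. Over all genes 3640 rose and 2636 fell, but when libraries were scaled on the pan-leukocyte genes in place of TMM 4532 rose and 734 fell, and the median of all genes became 0.23 (that of nuclear members 0.57).

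**Figure D1:**
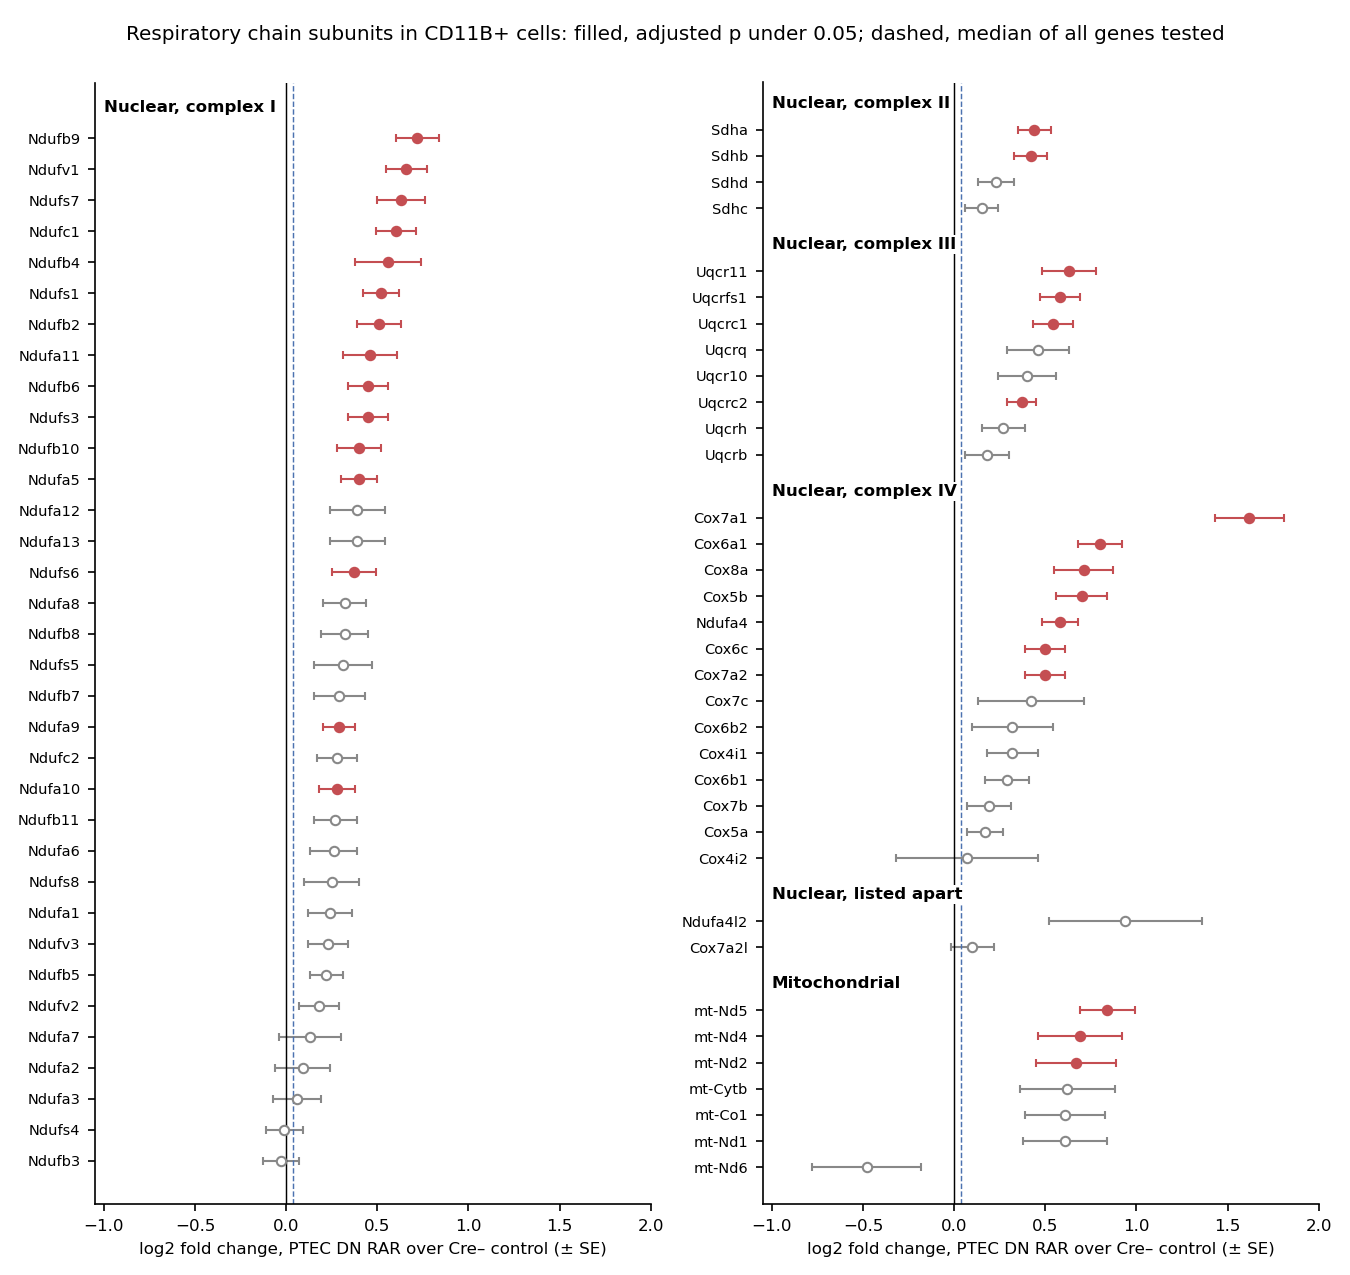
Log2 fold change (PTEC DN RAR over Cre– control, horizontal axis, with its standard error) of 69 of the 70 subunits with at least 10 counts in every library, ordered within each complex. Filled red points passed an adjusted p of 0.05, the dashed line is the median of all genes tested (0.04), and all points lie to its right except Ndufs4 at -0.01, Ndufb3 at -0.03 and mt-Nd6 at -0.48.

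Markers of several other kidney cells moved with the groups, in a fit where 23.6% of all genes tested rose and 17.1% fell. Transcripts of all 16 proximal tubule markers rose, with summed levels of 767 to 1000 CPM in Cre– controls and 2570 to 4020 CPM in PTEC DN RAR mice, and so did 6 of 6 markers of the thick ascending limb (1180 to 1580 against 4470 to 8530 CPM) and 4 of 4 of the distal convoluted tubule (145 to 179 against 635 to 1110 CPM). All 7 endothelial, 4 of 5 podocyte, 7 of 8 pericyte and stroma and 3 of 7 collecting duct markers tested also rose, and 1 of 4 B cell markers tested did (3 with DESeq2 and 4 under the pan-leukocyte scaling). Of the myeloid lists, 6 of 7 infiltrating monocyte markers fell (summed 2400 to 2630 against 1160 to 1350 CPM), 5 of 8 neutrophil markers fell (462 to 835 against 292 to 414 CPM), and of 7 resident macrophage markers 1 rose and 1 fell (10300 to 11300 against 9770 to 12700 CPM), but 4 rose and 0 fell under the pan-leukocyte scaling. None of the 5 T and NK cell markers tested passed in either direction (0 genes by edgeR, DESeq2, limma-voom or an unadjusted p under 0.05, summed 3.04 to 7.58 against 2.39 to 7.43 CPM). No marker in these lists was at 0 in all libraries. In bulk RNA, a different number of cells of a type and a different amount of RNA per cell cannot be told apart. These markers touch every result on the respiratory chain given here, and their part in those results was not tested.

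Complex I oxidizes NADH through nuclear catalytic core subunits, which carry its flavin and iron-sulfur clusters, and numerous accessory subunits. Of the 35 nuclear members kept, 16 rose (45.7%, against 23.6% of all genes tested) and 0 fell (17.1% of all genes), with a median log2 fold change of 0.32 against 0.04 over all genes.

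Ndufv1, which binds NADH and the flavin, measured 89.3, 71.7 and 76.8 CPM in Cre– controls and 124, 116 and 136 CPM in PTEC DN RAR mice. The log2 fold change was 0.66 ± 0.11 (SE, adjusted p = 0.00207). Ndufs7, which holds the last iron-sulfur cluster before ubiquinone, was at 46.9, 33.2 and 37.1 CPM in controls and 63.8, 54.9 and 62.9 CPM in PTEC DN RAR mice (log2 fold change 0.63 ± 0.13, adjusted p = 0.00651). Both genes separated the groups, each PTEC DN RAR library being above the controls. Ndufs1, the largest core subunit, rose by 0.52 ± 0.10 (adjusted p = 0.00475) and Ndufs3 by 0.45 ± 0.11 (adjusted p = 0.013). Ndufs3 was not past the threshold without Cre– control 2, without Cre– control 3 or without PTEC DN RAR 3 (adjusted p = 0.0606, 0.0781 and 0.063). Ndufs8 and Ndufv2, also of the core, overlapped between groups, with log2 fold changes of 0.25 ± 0.15 (adjusted p = 0.221) and 0.18 ± 0.11 (adjusted p = 0.2).

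Among accessory subunits the highest log2 fold change was that of Ndufb9 on chromosome 15 of GRCm38 from 58933756 to 58939488. Its levels were 82.8, 66.2 and 70.7 CPM in controls and 128, 104 and 128 CPM in PTEC DN RAR mice, a log2 fold change of 0.72 ± 0.12 (adjusted p = 0.00232). At the other end, Ndufb3 measured 21.2, 20.9 and 21.9 CPM in controls and 19.6, 20.3 and 22.6 CPM in PTEC DN RAR mice (-0.03 ± 0.10, adjusted p = 0.808), and Ndufs4, whose loss causes a severe complex I deficiency, measured 47.6, 45.0 and 44.1 CPM against 44.2, 40.7 and 50.6 CPM (-0.01 ± 0.10, adjusted p = 0.934). Ndufa3 had a log2 fold change of 0.06 ± 0.13 (adjusted p = 0.726). The values of these 3 genes overlapped between groups. Ndufb3 and Ndufs4 had positive log2 fold changes, 0.17 and 0.19, under the pan-leukocyte scaling, neither past the threshold.

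Complex II oxidizes succinate and is also succinate dehydrogenase of the tricarboxylic acid cycle. Its catalytic pair rose. Sdha, the flavoprotein, was at 302, 302 and 305 CPM in controls and 390, 400 and 448 CPM in PTEC DN RAR mice (0.44 ± 0.09, adjusted p = 0.00499), and the controls differed by less than the gap to any PTEC DN RAR library. Sdhb, the iron-sulfur subunit, was at 133, 112 and 116 CPM against 170, 154 and 161 CPM (0.42 ± 0.09, adjusted p = 0.00803), and was not past the threshold without Cre– control 3 (adjusted p = 0.0567). The membrane anchors Sdhc and Sdhd overlapped between groups, with log2 fold changes of 0.15 ± 0.09 (adjusted p = 0.199) and 0.23 ± 0.10 (adjusted p = 0.0938). The catalytic pair and the anchors belong to the same complex, and the difference between them was not tested.

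In complex III, 4 of 8 nuclear members rose and 0 fell, where 23.6% and 17.1% of all genes tested did, with a median log2 fold change of 0.43. The catalytic Rieske iron-sulfur protein Uqcrfs1 rose from 124, 100 and 113 CPM to 163, 155 and 184 CPM (0.58 ± 0.11, adjusted p = 0.00367). Both core proteins also rose, Uqcrc1 from 187, 156 and 158 CPM to 248, 221 and 261 CPM (0.54 ± 0.11, adjusted p = 0.00465) and Uqcrc2 from 174, 159 and 167 CPM to 221, 203 and 220 CPM (0.37 ± 0.08, adjusted p = 0.00871). The largest difference was in the small subunit Uqcr11, at 48.4, 33.7 and 36.7 CPM in controls and 64.3, 52.8 and 66.5 CPM in PTEC DN RAR mice (0.63 ± 0.15, adjusted p = 0.0106). Uqcrc2 and Uqcr11 were not past the threshold without Cre– control 3 (adjusted p = 0.0572 and 0.0577). The small subunits Uqcrq, Uqcr10, Uqcrh and Uqcrb overlapped between groups, with log2 fold changes of 0.46, 0.40, 0.27 and 0.18 and adjusted p values of 0.0585, 0.0706, 0.111 and 0.254. For Uqcrq and Uqcr10 the overlap came from Cre– control 1, at 92.9 and 85.4 CPM, against 88.2 and 79.3 CPM in PTEC DN RAR 2.

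Complex IV, cytochrome c oxidase, had the highest median among the nuclear members of complexes I to IV, 0.46, and 7 of its 14 nuclear members rose, where 23.6% of all genes tested did. Its nuclear subunits surround a catalytic center made of mitochondrially encoded proteins. Cox6a1 rose from 139, 104 and 113 CPM to 212, 187 and 221 CPM (0.80 ± 0.12, adjusted p = 0.00175). Cox8a rose from 118, 78.6 and 86.4 CPM to 153, 136 and 174 CPM (0.71 ± 0.16, adjusted p = 0.00836). Ndufa4 rose by 0.58 on the log2 scale (adjusted p = 0.00322). Cox4i1, the ubiquitous form of the largest nuclear subunit, was at 444, 315 and 354 CPM in controls and 511, 403 and 473 CPM in PTEC DN RAR mice, so that PTEC DN RAR 2 lay below Cre– control 1 (0.32 ± 0.14, adjusted p = 0.109). The smallest differences besides the rare isoform Cox4i2 were those of Cox5a (0.17 ± 0.10, adjusted p = 0.179) and Cox7b (0.19 ± 0.12, adjusted p = 0.235). Per kilobase of exons, Cox6b1, Cox4i1, Cox6a1 and Cox8a had the highest mean levels among nuclear members (284, 269, 232 and 201 CPM per kb).

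Several complex IV subunits exist as a ubiquitous form and a form restricted to a few tissues. Cox7a1, known as the heart and skeletal muscle form, had the largest log2 fold change of all members. The gene lies on chromosome 7 of GRCm38 from 30184144 to 30186078. It measured 2.54, 2.18 and 2.00 CPM in Cre– controls (99, 65 and 63 counts) and 7.65, 5.68 and 7.44 CPM in PTEC DN RAR mice (320, 241 and 351 counts), a log2 fold change of 1.62 ± 0.19 or 3.08-fold (adjusted p = 0.000577). Its ubiquitous counterpart Cox7a2 rose from 91.6, 80.1 and 80.7 CPM to 128, 102 and 127 CPM (0.50 ± 0.11, adjusted p = 0.00836), and was not past the threshold without Cre– control 3 (adjusted p = 0.0531). In CPM, without correction for length, Cox7a1 was 2.77%, 2.72% and 2.47% of Cox7a2 in controls against 5.98%, 5.59% and 5.86% with DN RAR, so the isoform ratio did not overlap between groups (no test was run on the ratio). The 5 striated muscle markers summed to 1.14 to 1.34 CPM in controls and 0.966 to 1.34 CPM in PTEC DN RAR mice, with Myh4 at 0 in every library and neither of the 2 tested past the threshold. The 5 adipocyte markers summed to 0.154 to 0.335 CPM and 0.212 to 0.353 CPM, with Lep at 0 and none expressed enough to be tested. The pericyte and stroma markers summed to 83.5 to 103 CPM and 139 to 206 CPM, and 7 of 8 rose, where 23.6% of all genes tested did. Their log2 fold changes were 0.45 to 1.47. Markers of other kidney cells rose too, and those of the proximal tubule (16 of 16 higher) had log2 fold changes of 0.88 to 2.59. Whether Cox7a1 transcripts came from any of these cells was not tested.

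The other restricted forms were rare. Cox6a2, the muscle form of Cox6a1, had 24, 7 and 7 counts in controls against 22, 37 and 30 with DN RAR and was left out by the rule on counts. Cox4i2, a form known from lung, ran from 0.348 to 0.369 CPM in controls and 0.263 to 0.53 CPM in PTEC DN RAR mice (0.07 ± 0.39, adjusted p = 0.901). Cox6b2, known from testis, had CPM of 1.16% ± 0.0388 (SD, n = 3) of those of Cox6b1 in controls, against 1.19% ± 0.107 (SD, n = 3) with DN RAR. Cox6b2 and Cox6b1 had log2 fold changes of 0.32 ± 0.22 (adjusted p = 0.271) and 0.29 ± 0.12 (adjusted p = 0.0876). Cox8b, a muscle form, had 0 to 3 counts, while Cox7b2 and Cox8c were at 0 counts in every library. Ndufa4l2, which hypoxia is known to induce, was at 0.717, 0.47 and 0.348 CPM in controls and 0.645, 0.872 and 1.46 CPM in PTEC DN RAR mice (0.94 ± 0.42, adjusted p = 0.103), with PTEC DN RAR 1 below Cre– control 1. Cox7a2l had a log2 fold change of 0.10 ± 0.12 (adjusted p = 0.542).

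**Figure D2:**
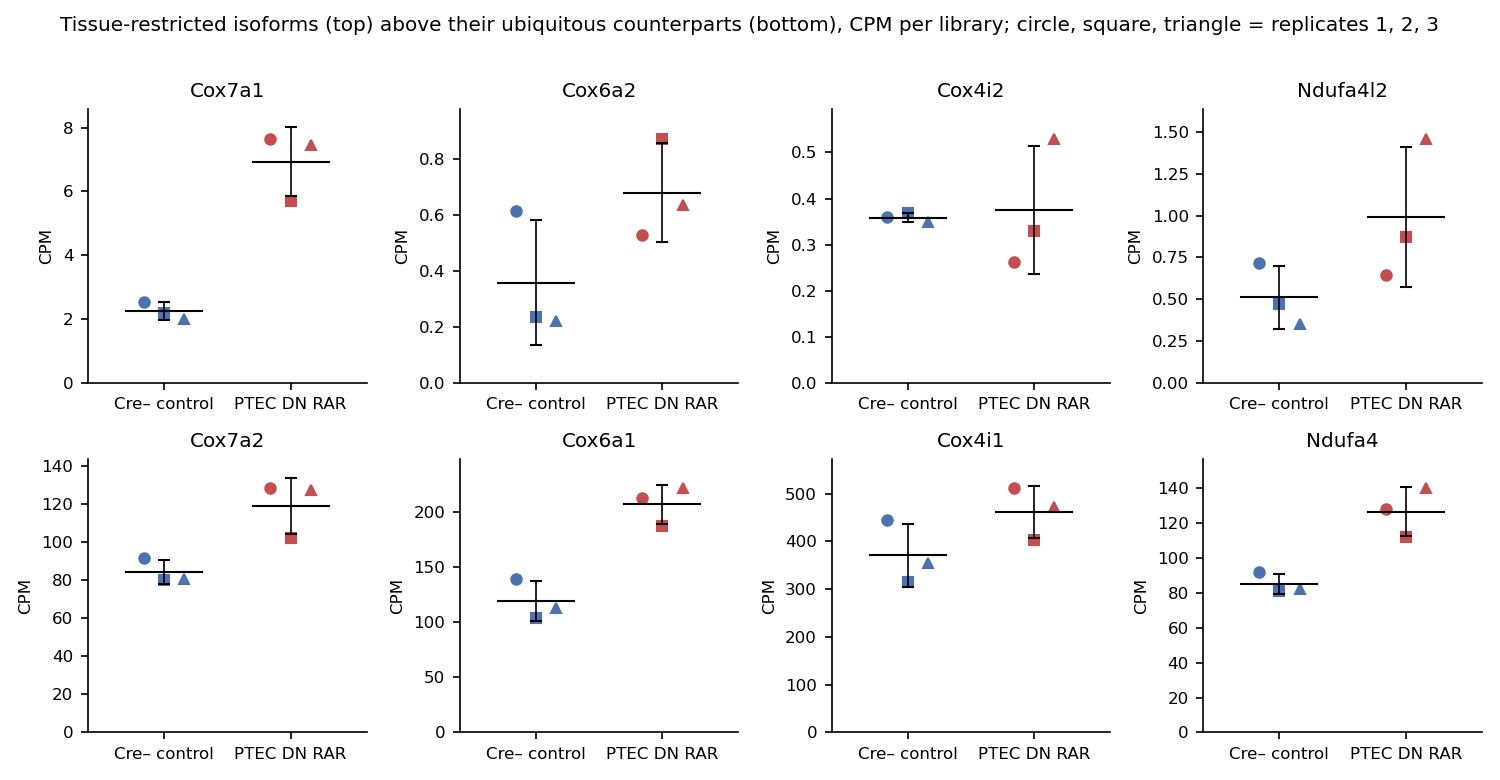
CPM (vertical axes, each from 0) of restricted isoforms (top row) and their ubiquitous counterparts (bottom row) in each of 6 libraries, with the mean and SD of 3 mice per group. Cox7a1 separates the groups by the widest fold, 2.00 to 2.54 CPM against 5.68 to 7.65 CPM, and Cox6a2, Cox4i2, Ndufa4l2 and Cox4i1 overlap between groups.

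RefSeq promoter windows of the nuclear members on GRCm38.p6 (250 bases before to 50 after the start) were searched on both strands for short cores recognized by factors known to bind respiratory genes. Of the 63 nuclear members 51 had a window in the table, 53 windows in all. The ETS core CCGGAAG, bound by GABPA, was in 20.8% of the members' windows and in 8.86% of all 32851 windows. The NRF1 core GCGCATGC was in 13.2% against 2.71%, the YY1 core AAGATGGC in 13.2% against 2.75%, and the SP1 core GGGCGG in 41.5% against 35.7%. Such matches describe the letters of the windows and not binding. The windows of Cox6a1 and Sdhb held ETS, NRF1 and SP1 cores and that of Uqcr11 held ETS and NRF1 cores, and that of Cox7a1, the member with the largest difference, held none. Lacking all of these cores did not set Cox7a1 apart: 17 of the 51 members had none, of which 8 rose (among them Ndufv1, Sdha and Uqcrfs1), and of the 34 members with at least 1 core 16 rose, where 23.6% of all genes tested did. The 4 windows are shown as examples of both kinds, on the strand of the gene, with matches on either strand in capitals. In the Cox6a1 window the NRF1 core overlaps its own reverse complement.
Cox6a1: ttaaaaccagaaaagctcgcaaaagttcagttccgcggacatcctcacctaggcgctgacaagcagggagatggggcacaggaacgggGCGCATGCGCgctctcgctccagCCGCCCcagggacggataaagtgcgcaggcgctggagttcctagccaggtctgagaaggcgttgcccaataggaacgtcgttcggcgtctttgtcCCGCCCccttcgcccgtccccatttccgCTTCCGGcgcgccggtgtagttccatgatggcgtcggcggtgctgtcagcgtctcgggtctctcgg
Sdhb: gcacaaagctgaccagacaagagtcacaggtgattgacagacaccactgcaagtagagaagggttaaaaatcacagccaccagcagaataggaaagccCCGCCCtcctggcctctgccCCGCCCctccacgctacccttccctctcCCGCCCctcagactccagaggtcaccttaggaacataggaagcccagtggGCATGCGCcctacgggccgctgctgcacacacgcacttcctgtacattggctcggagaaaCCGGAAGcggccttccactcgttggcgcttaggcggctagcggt
Uqcr11: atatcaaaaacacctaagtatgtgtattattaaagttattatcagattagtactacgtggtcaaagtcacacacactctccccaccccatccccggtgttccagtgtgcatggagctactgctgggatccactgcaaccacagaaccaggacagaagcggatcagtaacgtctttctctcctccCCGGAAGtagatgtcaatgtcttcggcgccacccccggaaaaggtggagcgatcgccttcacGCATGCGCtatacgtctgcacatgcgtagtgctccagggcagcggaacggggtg
Cox7a1: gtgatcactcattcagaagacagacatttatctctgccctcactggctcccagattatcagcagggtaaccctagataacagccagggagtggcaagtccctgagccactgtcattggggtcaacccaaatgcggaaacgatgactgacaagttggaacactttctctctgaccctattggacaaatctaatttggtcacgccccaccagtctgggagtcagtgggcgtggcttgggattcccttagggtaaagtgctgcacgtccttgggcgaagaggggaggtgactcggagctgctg
These windows lie at chr5:115348909-115349208 (minus strand), chr4:140961021-140961320 (plus strand), chr10:80406772-80407071 (minus strand) and chr7:30183921-30184220 (plus strand).

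Transcripts of the factors known to regulate these genes moved in both directions. Of 12 biogenesis regulators 6 rose and 1 fell, where 23.6% and 17.1% of all genes tested did, with a median log2 fold change of 0.16. The number that fell depended on the method: it was 4 with DESeq2, 1 with limma-voom, 3 with the size factors of DESeq2 in edgeR and 0 under the pan-leukocyte scaling, while 5 or 6 rose in each. Gabpa, which binds the ETS core, fell from 54.3, 66.0 and 71.8 CPM to 42.3, 47.9 and 47.7 CPM (-0.48 ± 0.12, adjusted p = 0.0115), though it was not past the threshold under the pan-leukocyte scaling (-0.28, adjusted p = 0.167). Esrrb, an estrogen-related receptor, rose from 3.69, 2.55 and 2.69 CPM to 24.3, 18.9 and 30.8 CPM (3.04 ± 0.22, adjusted p = 0.000156). The coactivator Ppargc1a and the factor Nrf1 were singled out after their values were seen. Ppargc1a rose from 10.1, 6.78 and 8.17 CPM to 30.6, 26.8 and 38.9 CPM (1.94 ± 0.19, adjusted p = 0.000303), while Nrf1 had a log2 fold change of -0.21 ± 0.09 (adjusted p = 0.0994). Esrrb and Ppargc1a thus had larger log2 fold changes than any respiratory chain subunit. Esrrb lay within the range of the thick ascending limb markers (1.97 to 3.15) and above that of the proximal tubule markers (0.88 to 2.59). Ppargc1a lay within the proximal tubule range and below the thick ascending limb range. The part of these markers in this result was not tested.

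Summed over members, nuclear transcripts of complexes I, II, III and IV were 1.27, 1.27, 1.36 and 1.35 times as high in PTEC DN RAR mice as in controls. For complex I the sums were 2220, 1790 and 1920 CPM in controls and 2660, 2260 and 2630 CPM in PTEC DN RAR mice. For complex IV they were 1440, 1130 and 1210 CPM and 1790, 1480 and 1830 CPM. The PTEC DN RAR sums lay above all control sums in each of the 4 complexes, by the narrowest margin in complexes I and IV. Mitochondrial transcripts gave larger ratios, 1.59 for complex I, 1.54 for complex III and 1.52 for complex IV. Their control libraries also spread further apart, from 21000 to 38500 CPM for complex I.

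**Figure D3:**
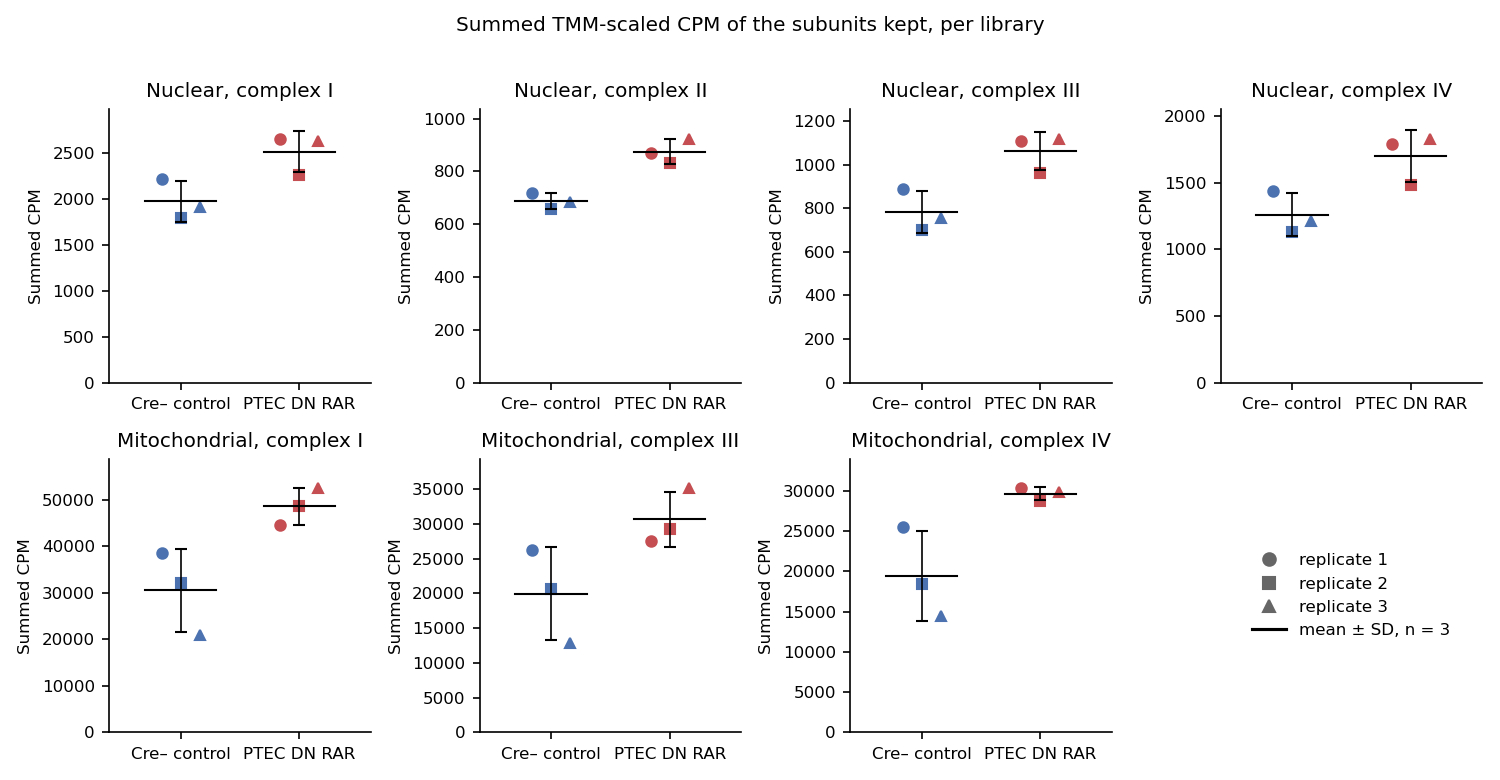
Summed CPM (vertical axes, each from 0) of nuclear members of complexes I to IV and of mitochondrial members of complexes I, III and IV in each library, with the mean and SD of 3 mice per group. All 3 PTEC DN RAR libraries lie above all 3 controls in each panel, and the mitochondrial panels show Cre– control 3 lowest and Cre– control 1 highest of the controls.

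Mitochondrial DNA encodes 13 proteins, and 6 of these genes had almost no counts in any library. mt-Atp6, mt-Atp8, mt-Co3, mt-Nd3 and mt-Nd4l were at 0 counts and mt-Co2 at 0 to 2, although the flanking mt-Co1 and mt-Nd4 had at least 456640 and 139935. The 6 genes follow each other on mitochondrial DNA from position 7013 to position 10173. For 5 of them, between 98.0% and 100% of their 50-base stretches also occur in other annotated transcripts, mainly those of nuclear copies on chromosome 1 of GRCm38, namely Gm28661 (mt-Co2), Gm10925 (mt-Atp6), Gm28437 (mt-Co3), Gm28438 (mt-Nd3) and Gm10222 (mt-Nd4l). Of the 635 stretches of mt-Co2, 632 occur in Gm28661 and 224 in Gm13341 on chromosome 2. mt-Atp8 shares 0% with other annotated transcripts and lies between mt-Co2 and mt-Atp6. The counting left out reads without a unique alignment, and between 42.93% and 47.75% of alignments per library were not unique. A count at or near 0 in the 5 genes with copies is therefore no measure of expression. The shared stretches do not cover mt-Atp8. The reason for its 0 counts was not tested, and they are not read as a measure of expression either. The stretch below shows mt-Co2 from base 1 to 120 beside Gm28661, which are identical over all 681 aligned bases, and mt-Co1 from base 1054 to 1173 beside Gm29216, which differ at the 6 positions in capitals among 492 aligned.
mt-Co2: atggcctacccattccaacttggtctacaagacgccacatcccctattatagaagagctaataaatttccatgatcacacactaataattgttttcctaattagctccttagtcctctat
Gm28661: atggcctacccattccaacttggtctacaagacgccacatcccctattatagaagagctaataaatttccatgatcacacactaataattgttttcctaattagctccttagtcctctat
mt-Co1: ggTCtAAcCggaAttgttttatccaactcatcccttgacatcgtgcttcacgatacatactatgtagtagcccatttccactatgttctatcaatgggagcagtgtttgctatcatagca
Gm29216: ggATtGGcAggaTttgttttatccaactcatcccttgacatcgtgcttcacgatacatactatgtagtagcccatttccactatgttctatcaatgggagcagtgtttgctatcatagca
Copied stretches of 50 bases made up 51.1% of mt-Co1 and 62.2% of mt-Nd4, against 8.2% of mt-Nd2, 7.6% of mt-Nd5 and 0% of mt-Nd1, mt-Cytb and mt-Nd6. Where on these genes the counted reads lie was not tested. Among the copies of mt-Co2, Gm28661 had 17, 0 and 5 counts in controls and 18, 20 and 38 counts in PTEC DN RAR mice, and Gm13341 had 208, 104 and 82 counts against 271, 263 and 299. Among those of mt-Co1, Gm29216 had 0 to 2 counts in any library, and Gm13340 on chromosome 2 had 255, 134 and 131 counts in controls against 326, 290 and 340.

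The 7 mitochondrial genes with counts held 8.64%, 7.22% and 4.95% of all gene counts in Cre– controls, against 10.18%, 10.59% and 11.91% with DN RAR, with exact 95% binomial intervals reaching at most 0.00937 percentage points to either side (counting error only, since reads carry no molecular identifiers and may share a molecule). Of the 7, 3 rose (42.9%, against 23.6% of all genes tested) and 0 fell (17.1% of all genes), with a median log2 fold change of 0.62. DESeq2 called 6 higher and limma-voom 5, both called 0 lower, and 0 had an unadjusted p under 0.05 in the lower direction by edgeR. In 6 of the 7 every PTEC DN RAR library lay above every control, a pattern of 29.2% of all genes tested. The number that rose was 6 without Cre– control 1, the highest control for all 7 genes, where 3699 of 15966 genes tested rose. It was 1 without any other single library, where 2433 to 3157 of 15708 to 15961 genes tested rose.

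mt-Nd5, a proton-pumping subunit of complex I encoded from position 11742 to 13565, rose from 4090, 3640 and 2830 CPM to 6100, 6250 and 6530 CPM (0.84 ± 0.15, adjusted p = 0.00364). It was the mitochondrial gene whose call held whichever library was left out, with log2 fold changes of 0.66 to 0.95. The pumping subunits mt-Nd2 and mt-Nd4 rose from 9510, 8540 and 5390 CPM to 11200, 12500 and 13700 CPM (0.67 ± 0.22, adjusted p = 0.0351) and from 8460, 7220 and 4430 CPM to 9420, 10600 and 12300 CPM (0.69 ± 0.23, adjusted p = 0.0441). Both lost the call when any library other than Cre– control 1 was left out. mt-Nd4 was also not past the threshold with the size factors of DESeq2 in edgeR (adjusted p = 0.0525) or with library totals taken without mitochondrial genes (adjusted p = 0.0524). mt-Nd1 was at 16400, 12500 and 8310 CPM in controls and 17900, 19200 and 19800 CPM in PTEC DN RAR mice (0.61 ± 0.23, adjusted p = 0.0647). mt-Cytb, the catalytic core of complex III, was at 26200, 20700 and 12900 CPM against 27600, 29300 and 35100 CPM (0.62 ± 0.26, adjusted p = 0.0809), and mt-Co1, the heme and copper subunit of complex IV, at 25500, 18400 and 14500 CPM against 30300, 28800 and 29900 CPM (0.61 ± 0.22, adjusted p = 0.0513). These 3 genes did not overlap between groups yet missed the threshold with TMM scaling in edgeR. All 3 passed with DESeq2 (adjusted p = 0.0185, 0.0257 and 0.00801 for mt-Nd1, mt-Cytb and mt-Co1), under the pan-leukocyte scaling and without a filter, and mt-Nd1 and mt-Co1 also passed with limma-voom (adjusted p = 0.0419 and 0.0264) and with library size alone.

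mt-Nd6 stood apart. It is the only 1 of the 13 genes annotated on the minus strand, from position 13552 to 14070, and its transcript is known to lack a stable polyA tail. It measured 103, 68.3 and 38.0 CPM in controls and 57.1, 42.0 and 51.3 CPM in PTEC DN RAR mice, so that the groups overlapped, with a log2 fold change of -0.48 ± 0.30 (adjusted p = 0.231). Without Cre– control 3 it was -0.82 (adjusted p = 0.0192), and without Cre– control 1 it was -0.09 (adjusted p = 0.788). The 6 genes of the other strand together measured 878, 1040 and 1270 times the CPM of mt-Nd6 in controls and 1790, 2540 and 2290 times in PTEC DN RAR mice. The ratio did not overlap between groups, and no test was run on it. How the counting treated strand is not given in the sources used here, so reads from mt-Nd6 and from the opposite strand cannot be told apart.

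**Figure D4:**
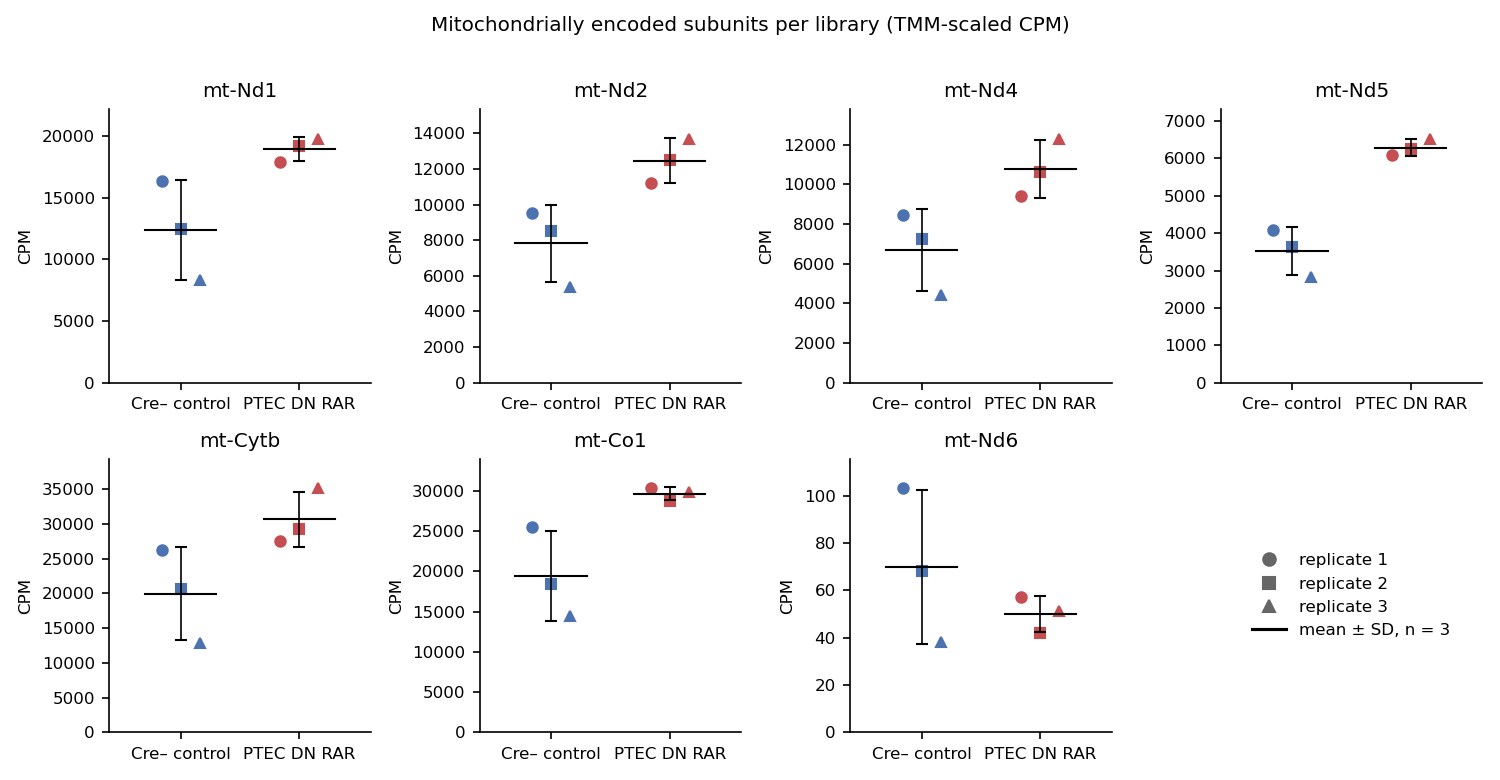
CPM (vertical axes, each from 0) of the 7 mitochondrially encoded subunits with counts, in each library, with the mean and SD of 3 mice per group. In 6 genes all PTEC DN RAR libraries lie above all controls, while mt-Nd6 ranges from 38.0 to 103 CPM in controls and from 42.0 to 57.1 CPM in PTEC DN RAR mice.

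In CPM, the summed mitochondrial members were 16.8, 16.3 and 10.4 times the summed nuclear members in controls, against 15.6, 18.9 and 17.8 times with DN RAR. This balance between genomes overlapped between groups, with means of 14.5 ± 3.56 and 17.4 ± 1.66 (SD, n = 3). mt-Nd5 CPM were 48.4%, 50.4% and 63.9% of those of mt-Nd4 in controls, against 64.7%, 58.7% and 53.0% with DN RAR, which also overlapped.

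Lists of related genes were counted by the same fit, in which 23.6% of all genes tested rose and 17.1% fell. Of 6 electron carriers and partners 4 rose (3 with DESeq2 or limma-voom, 5 under the pan-leukocyte scaling), with a median log2 fold change of 0.43. Cyc1, the cytochrome c1 of complex III, which the symbol rule does not reach, rose from 93.4, 77.3 and 76.3 CPM to 167, 143 and 170 CPM (0.96 ± 0.11, adjusted p = 0.000537), and Etfa, an electron transfer flavoprotein, rose by 0.28 ± 0.10 (adjusted p = 0.0451). Of 16 ATP synthase genes tested 6 rose and 0 fell, with a median of 0.19, from Atp5j at 0.29 ± 0.08 (adjusted p = 0.0235) to Atp5g1, a c-ring subunit, at 1.02 ± 0.18 (adjusted p = 0.0031). Of 17 genes of the tricarboxylic acid cycle 10 rose and 0 fell, with a median of 0.40, from Idh3b at 0.28 ± 0.09 (adjusted p = 0.0404) to Idh2 at 0.94 ± 0.14 (adjusted p = 0.00134). None of these lists had a gene lower at an unadjusted p under 0.05 by edgeR (0 genes), and DESeq2 and limma-voom called 0 lower.

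Of 41 assembly factors tested 6 rose (14.6%, against 23.6% of all genes tested) and 2 fell (17.1% of all genes fell), with a median of 0.11 against 0.04 over all genes. Ecsit, a complex I assembly factor, rose by 0.70 ± 0.14 (adjusted p = 0.00479), and Sdhaf2, which attaches the flavin to Sdha, fell by 0.36 on the log2 scale (SE 0.08, adjusted p = 0.00921), a call lost under the pan-leukocyte scaling (adjusted p = 0.303). Of 73 mitochondrial ribosomal protein genes tested 4 rose (5.48%) and 7 fell, with a median of -0.04, and their summed level was 1850 ± 148 CPM in controls against 1810 ± 135 CPM with DN RAR (SD, n = 3). With the size factors of DESeq2 in edgeR 1 ribosomal gene rose and 9 fell, with a median of -0.08. Under the pan-leukocyte scaling 7 ribosomal genes rose and 1 fell, with a median of 0.15. Mrps6 rose by 1.51 ± 0.22 (adjusted p = 0.00149), and Mrpl33 fell by 0.59 on the log2 scale (SE 0.11, adjusted p = 0.00346). Of 27 genes for the replication, transcription and RNA processing of mitochondrial DNA 6 rose (22.2%, near the share of all genes) and 3 fell, with a median of -0.02. With the size factors of DESeq2 in edgeR 5 rose and 4 fell (median -0.06), and under the pan-leukocyte scaling 9 rose and 0 fell (median 0.17). Mterf2, of the mitochondrial transcription termination factor family, rose from 0.41, 0.47 and 0.348 CPM to 1.27, 1.63 and 1.61 CPM (1.87 ± 0.29, adjusted p = 0.00178), and Pnpt1, a mitochondrial RNA exonuclease, fell from 36.1, 42.3 and 39.7 CPM to 19.8, 22.4 and 30.0 CPM (-0.71 ± 0.15, adjusted p = 0.00713), again not past the threshold under that scaling (adjusted p = 0.0745). Tfam, which packages and transcribes mitochondrial DNA and was singled out after its values were seen, measured 24.9 ± 2.37 CPM in controls against 25.6 ± 1.13 CPM with DN RAR (SD, n = 3, adjusted p = 0.778). Of the 26 pan-leukocyte genes 0 rose and 8 fell, with a median of -0.09, and 0 were higher at an unadjusted p under 0.05 or by DESeq2 or limma-voom. Of a list of 6 annotated copies of mitochondrial genes, which leaves out Gm13340 and Gm13341, 2 were tested, and Gm28438 rose by 1.27 ± 0.35 (adjusted p = 0.0207) from levels of 0.348 to 0.461 CPM.

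**Figure D5:**
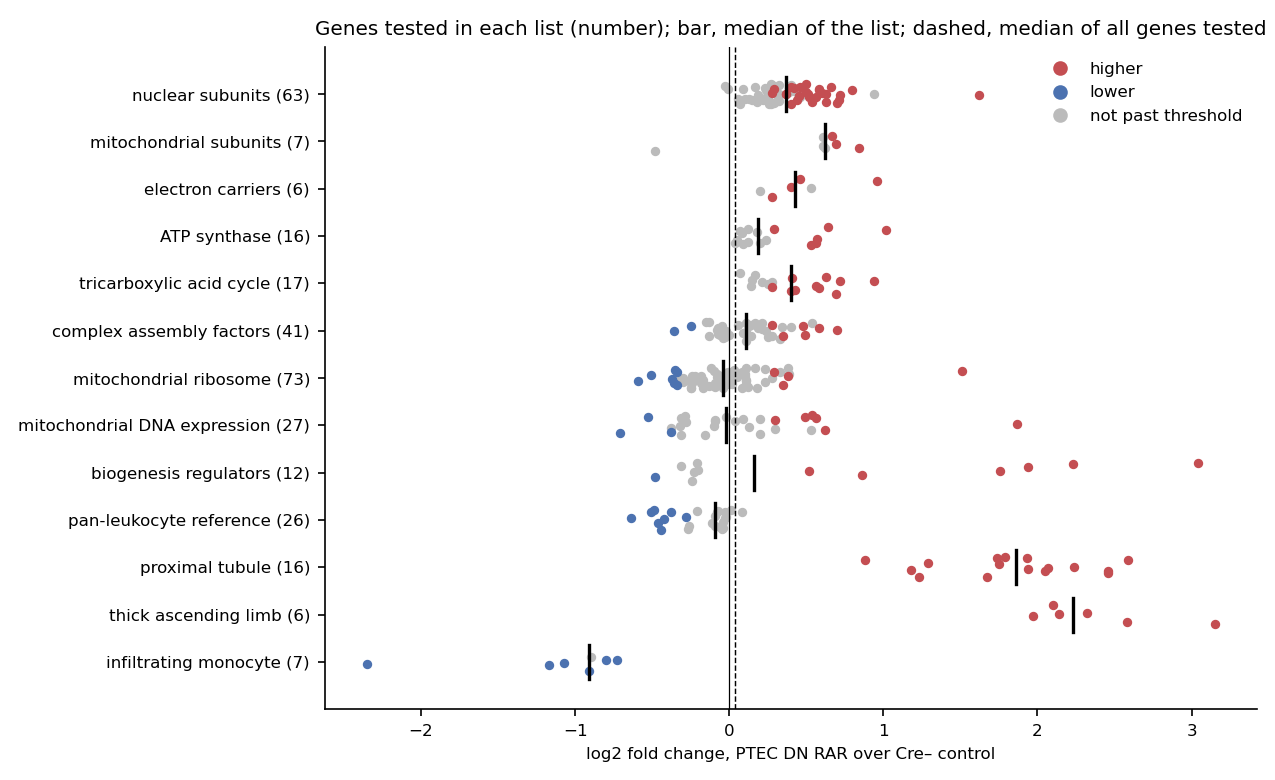
Log2 fold change (PTEC DN RAR over Cre– control, horizontal axis) of each gene tested in the subunit groups, the related mitochondrial lists and 4 reference or marker lists, with a bar at each list's median. Medians run from -0.91 for infiltrating monocyte markers through -0.04 for mitochondrial ribosomal genes and 0.37 for nuclear subunits to 2.23 for thick ascending limb markers.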

How the data were processed

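CD11B+ cells from kidneys of 6 mice were sequenced, 1 library each. The file deposited by the authors gives, for each Ensembl gene, the unnormalized count of reads in every library. Per the submitters' processing notes, STAR 2.5.0a and HTSeq 0.6.1 were used with GRCm38, and edgeR and limma are also named there. The annotation release, strand setting and read length are not given in the sources used here. Reads aligned to several places were left out of the counts. The 46612 gene lines gave 46603 genes after 9 repeated identifiers were collapsed, of which 46091 were found in GENCODE M21, used for coordinates and exon lengths.

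Low counts were removed with filterByExpr. TMM factors, glmQLFit and glmQLFTest (edgeR 4.0.16, R 4.3.3) were applied to the whole table, two-sided, with Benjamini-Hochberg adjustment over 15440 genes and a threshold of 0.05. CPM are TMM-scaled. Standard errors are the log2 fold change divided by the square root of F. The libraries of a group differed by more than sampling noise (chi-square per degree of freedom of at least 27.1) and were counted as separate mice. Alternatives were DESeq2 1.42.0, limma-voom (limma 3.58.1), other scalings and filters, the replicate number as a block and leaving out each library. The code was tested on simulated counts. Genes were named by rule: all mitochondrial, Sdh and Uqcr members, the core of complex I, the isoforms of complex IV, the 3 highest and 3 lowest log2 fold changes of complexes I and IV, and the extremes past the threshold in each other list. A gene that the rule names is not reported here. The members, lists and rule were chosen with earlier results of these data known. Python 3.11 with pandas 2.3.3 and matplotlib 3.10.9 drew the figures.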

Additional observations from a re-analysis of the deposited data

How the results depend on the processing

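Of 63 nuclear members, 29 were higher with edgeR. The count was 45 when libraries were scaled on pan-leukocyte genes, which moved the nuclear median from 0.37 to 0.57 and that of all genes from 0.04 to 0.23. It was 44 with a replicate block. Of all 15440 genes tested, 3640 rose with edgeR, 4532 under the pan-leukocyte scaling and 3612 with the block. With DESeq2 3548 rose, with limma-voom 3566, with library size alone 3682, with DESeq2 size factors in edgeR 3405 and with totals without mitochondrial genes 3412. Without a filter 3571 of 25387 genes rose. The count below again refers to the nuclear members. With 1 library left out, the count of nuclear members higher was lowest at 15 without Cre– control 3, where 2433 of 15961 genes tested rose. It was highest at 45 without Cre– control 1, where 3699 of 15966 rose. In every fit 15 nuclear members were higher. The count lower was 0 in every fit. The nuclear median was 0.25 to 0.44 with 1 library left out. Of 7 mitochondrial members, 3 were higher with edgeR. The count was 6 with DESeq2, with pan-leukocyte scaling and without a filter, 5 with limma-voom and with library size alone, 2 with DESeq2 size factors in edgeR, with totals without mitochondrial genes and with the replicate block (mt-Nd5 and mt-Co1, mt-Nd2 and mt-Nd4 then having adjusted p values of 0.0535 and 0.068 by edgeR), and 1 to 6 with 1 library left out (6 without Cre– control 1, 1 without any other). The count lower was 0 to 1 with 1 library left out, the 1 being mt-Nd6 without Cre– control 3, and the median 0.39 to 0.86. Fewer libraries enter a fit with 1 left out, and the cause of these differences was not tested. Of 20 named members that passed the threshold, 13 passed under all 15 alternatives and 0 changed sign. The labels do not say that a replicate number joins mice. Deviations of libraries with the same number correlated at -0.015, 0.211 and 0.029 across genes. Cre– controls 1 and 3 correlated best with another number (0.151 and 0.042), while the 0.211 of number 2 was the highest of all pairs. With 3 libraries per group, these correlations cannot settle whether the numbers pair the mice. Depth limits Cox4i2, Ndufa4l2 and Cox6a2, with 7 to 69 counts per library, and p values measure the spread between 3 mice per group.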
